A study of Mus musculus with 2 samples.

Results

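Tmem176a, Tmem176b, Aqp3, Kcnk1, Pxdc1, Serpinb1a, Igf1r and Cd44 are 8 genes for surface and intracellular membrane proteins, channels, a growth factor receptor and a protease inhibitor that are read here as transcripts of the IL-17 lineage of γδ T cells. They were chosen by symbol from the 32285 genes of the files, and all 8 had unique molecular identifiers (UMIs) in both libraries. The transcripts were read in single γδ T cells from the lungs of uninfected mice, 5 to 7 weeks of age, with 1 droplet library for each of 2 groups. WT cells were sorted as Vγ1-negative from C57BL/6NCrl mice. KO-labelled cells were sorted as Vγ1-positive from mice of the strain B6.Cg-Tcrgtm1lku(B6.Vg4-/-Vg6-/-), which lack the Vγ4 and Vγ6 chains from the germline. With 1 library per group there were no replicates, and genotype, strain, sort and library cannot be told apart. The share of cells with Y-linked UMIs also differed between the libraries, so the sex of the mice cannot be told apart from these either.

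γδ T cells divide into an IL-17-producing branch (γδ17) and an interferon-γ-producing branch (γδ1), a choice mostly made in the thymus. γδ17 cells carry receptors for IL-23 and IL-1, are held in tissues such as lung and skin, and in the mouse are mostly Vγ6 and Vγ4 cells. CD27 marks the γδ1 branch, and Il23r, Il17a and Cd27 transcripts therefore served as markers here. Tmem176a and Tmem176b encode related proteins with membrane-spanning segments that conduct cations in intracellular membranes. Aqp3 encodes a channel for water and glycerol, Kcnk1 a potassium leak channel, and Pxdc1 a protein with a lipid-binding PX domain. Serpinb1a encodes an intracellular inhibitor of serine proteases, Igf1r the receptor for insulin-like growth factor, and Cd44 a receptor for hyaluronan that is high on effector T cells.

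Cells were grouped by T cell receptor (TCR) transcripts. Of 2505 WT cells, 520 had Tcrg-V6 as the only Tcrg-V gene with a UMI and 410 had only Tcrg-V4. Of 6634 KO-labelled cells, 2880 had a Tcrg-V1 UMI and 1499 a UMI of the 4 Trav15-dv6 genes, near-identical δ variable genes that the counting may split. Of these, 797 had both. The libraries held 9173997 and 26436826 UMIs, and median depth in the 4 groups was between 3427 and 4186 UMIs per cell. Tcrg-V6 had 0 UMIs in the KO-labelled library, whereas Tcrg-V4 UMIs, against the label, were in 14.9% of its cells and in 21.2% of its Tcrg-V1 cells. T cell genes (Cd3d, Cd3e, Cd3g, Trdc) had a UMI in 97.3% to 99.2% of the cells of each group. Of 8 myeloid marker genes, 5 had UMIs in both WT groups and 7 in both KO-labelled groups, with Ms4a7, C1qa and S100a8 at 0 in the former and S100a8 in the latter. Their summed level was 302 CPM (the gene's UMIs per 1000000 UMIs of the group's cells) in Tcrg-V6-only, 482 in Tcrg-V4-only, 185 in Tcrg-V1 and 180.5 in Trav15-dv6 cells. Y-linked UMIs were in 25.6% and 28.3% of cells of the WT groups and 0.521% and 0.534% of those of the KO-labelled groups, and 23 cell barcodes occurred in both libraries. The part of these differences in the results was not tested, beyond the values given without such cells. Leaving out cells with a Y-linked UMI keeps male cells in which none was detected.

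Over all cells of each group, all 8 genes were highest in WT Tcrg-V6-only cells. The order of the other 3 groups differed from gene to gene. Levels are CPM of summed UMIs with exact Poisson 95% intervals, and ratios are log2 ratios of CPM with exact conditional 95% intervals. Both cover counting error only. The Tcrg-V1 and Trav15-dv6 groups share 797 cells, so their levels and intervals are not independent. A gene was counted as past 2-fold if its log2 ratio was beyond 1 or -1 and the interval left out 0.

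**Figure D1:**
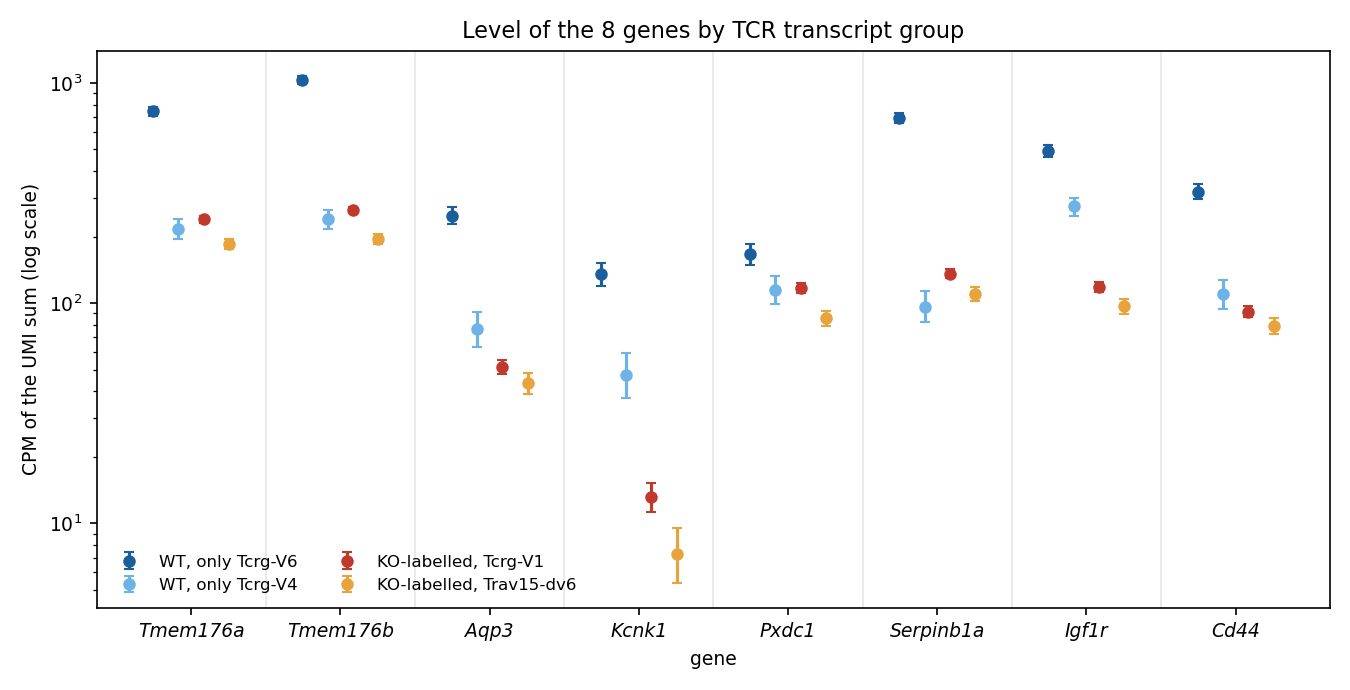
Level of each gene in the 4 TCR transcript groups, as CPM of summed UMIs on a log axis, with exact Poisson 95% intervals as bars. Each point is 1 group of cells from 1 library. The Tcrg-V6-only point is the highest for all 8 genes, and Kcnk1 has the widest range, from 135 to 7.24 CPM.

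Tmem176a (ENSMUSG00000023367) and Tmem176b (ENSMUSG00000029810) lie head to head on chromosome 6 of GRCm38, at 48840919 to 48847071 on the plus strand and 48833818 to 48841496 on the minus strand. The annotated genes overlap by 578 bases, and the sources used here do not say whether reads were counted by strand, so reads from the overlap may be assigned to either gene. The bases before a Tmem176a start are shown because they fall inside this shared region and both genes had like patterns over the groups. The window is 250 bases, chr6:48841233-48841482, plus strand, from RefSeq on GRCm38.p6, with a TCF/LEF motif match in capitals.
Tmem176a: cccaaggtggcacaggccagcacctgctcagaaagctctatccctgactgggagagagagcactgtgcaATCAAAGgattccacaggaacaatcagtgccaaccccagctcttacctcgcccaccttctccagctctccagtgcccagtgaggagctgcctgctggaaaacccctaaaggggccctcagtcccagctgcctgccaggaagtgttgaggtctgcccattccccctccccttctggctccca
The motif letters were ATCAAAG, searched on both strands, and they occur in 3.73% of 32851 RefSeq promoter windows of 27025 genes. The windows searched for the members were longer than the printed bases, and this one ran on to 48841532. The same bases lie in a window of Tmem176b, read on its own strand as CTTTGAT. Another window of Tmem176a and the other windows of Tmem176b had no match. A gene with several windows has more places for a match than the share per window covers. A second motif, the MAF half-site TGCTGA, occurs in 19.5% of windows and among the members matched only Aqp3. TCF/LEF letters matched no other member, 7 of the 8 genes had a window, and Serpinb1a had no entry. The TCF/LEF letters were chosen after this promoter had been read, so the share over all windows does not gauge their match here. A match describes letters only.

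Tmem176a had 744 CPM (707 to 783) in Tcrg-V6-only cells, 241 (232 to 249) in KO-labelled Tcrg-V1 cells, 218 (196 to 242) in Tcrg-V4-only cells and 186 (176 to 196) in Trav15-dv6 cells. Tmem176b had 1032 CPM (988 to 1078), 265 (256 to 274), 241 (217 to 266) and 196 (186 to 207) in the same order of groups. For both genes the Tcrg-V1 and Tcrg-V4-only intervals overlapped, as did those of Tcrg-V4-only and Trav15-dv6 for Tmem176a. In cells thinned to 2000 UMIs, a depth that 380 WT and 828 KO-labelled cells did not reach, a Tmem176b UMI was in 79.9% of Tcrg-V6-only, 33% of Tcrg-V4-only, 24.9% of Tcrg-V1 and 19.9% of Trav15-dv6 cells. Without thinning the shares were 88.1%, 41.0%, 31.6% and 25.2%. Tcrg-V1 cells thus had fewer positive cells than Tcrg-V4-only cells at a like summed level, and their positive cells held 3.94 Tmem176b UMIs on average against 2.27.

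Aqp3 (ENSMUSG00000028435, chromosome 4, 41092722 to 41098183, minus strand) had 250.5 CPM (229 to 274) in Tcrg-V6-only cells, 76.4 (63.4 to 91.3) in Tcrg-V4-only cells, 51.3 (47.5 to 55.2) in Tcrg-V1 cells and 43.3 (38.6 to 48.5) in Trav15-dv6 cells. The intervals of both KO-labelled groups overlapped and the others were apart. Kcnk1 (ENSMUSG00000033998, chromosome 8, 125995170 to 126030685, plus strand) had 135 CPM (120 to 153), 47.4 (37.3 to 59.4), 13.2 (11.3 to 15.2) and 7.24 (5.39 to 9.52) in that order, all 4 intervals apart, an 18.7-fold range. Kcnk1 UMIs were in 22.8% of thinned Tcrg-V6-only cells but in 2.36% of Tcrg-V1 and 1.21% of Trav15-dv6 cells. Both channel genes were thus lowest in the KO-labelled groups, and Kcnk1 there rested on 178 and 51 UMIs.

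Pxdc1 (ENSMUSG00000021411, chromosome 13, 34627834 to 34653486, minus strand) varied least, by 1.96-fold. It had 168 CPM (150.1 to 187) in Tcrg-V6-only cells, 117 (112 to 123) in Tcrg-V1 cells, 115 (98.9 to 133) in Tcrg-V4-only cells and 85.3 (78.7 to 92.5) in Trav15-dv6 cells. The Tcrg-V1 and Tcrg-V4-only intervals overlapped. Serpinb1a (ENSMUSG00000044734, chromosome 13, 32842092 to 32851185, minus strand) had 693 CPM (657 to 731) in Tcrg-V6-only cells, 137 (130.4 to 143) in Tcrg-V1, 110.2 (103 to 118) in Trav15-dv6 and 96.6 (81.9 to 113) in Tcrg-V4-only cells, with overlap between Trav15-dv6 and Tcrg-V4-only intervals. It was the only member whose lowest level was in WT cells, although 18.4% of thinned Tcrg-V4-only cells had a UMI against 13.1% of Tcrg-V1 and 11.2% of Trav15-dv6 cells. A single Tcrg-V1 cell held up to 39 Serpinb1a UMIs, against at most 5 in a Tcrg-V4-only cell. These highest counts are from 2880 and 410 cells with median depths of 4186 and 3427 UMIs, and a highest count can rise with both. Its close paralogs Serpinb1b and Serpinb1c, with which reads might be shared, had at most 3 UMIs each in Tcrg-V6-only, Tcrg-V4-only and Tcrg-V1 cells.

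Igf1r (ENSMUSG00000005533, chromosome 7, 67952827 to 68233668, plus strand) had 490.4 CPM (460.0 to 522) in Tcrg-V6-only cells, 275 (250.1 to 302) in Tcrg-V4-only, 119 (113 to 125) in Tcrg-V1 and 96.9 (89.7 to 104) in Trav15-dv6 cells, all intervals apart. Cd44 (ENSMUSG00000005087, chromosome 2, 102811141 to 102901665, minus strand) had 322 CPM (297 to 348), 109.9 (94.2 to 128), 91.5 (86.5 to 96.8) and 78.7 (72.3 to 85.5) in the same order, with overlap between Tcrg-V4-only and Tcrg-V1 cells. Igf1r was the member for which Tcrg-V4-only cells came nearest to Tcrg-V6-only cells after Pxdc1. Of the markers, Il23r had 454, 147, 88.4 and 64.8 CPM and Il17a 397, 183, 29.2 and 29.7 CPM in this order of groups, whereas Cd27 had 32.8, 329, 353 and 352 CPM.

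Cells outside the T lineage served to read the level that free RNA could give. They were chosen without any UMI of Cd3d, Cd3e, Cd3g or Trdc. Cells that took up free T cell RNA may thus be left out, and the background may be read too low. Tmem176a and Tmem176b UMIs were in 0 of 20 WT cells with B cell markers and no T cell gene, which allows a share of up to 15%. In the 11 KO-labelled cells of this kind 1 had a Tmem176a UMI, a share of 9.09% and a level of 34.6 CPM, and 0 had Tmem176b. Pxdc1 had 1 UMI in these 11 cells, a share of 9.09%, and 1 in the 19 KO-labelled myeloid-marker cells, a share of 5.26%. For Aqp3 and Kcnk1, UMIs were found in 0 of 33 myeloid-marker cells of the WT and 0 of 19 of the KO-labelled library, which allows up to 9.09% and 15.8%. These cells had median depths of 2265 UMIs for WT B-marker cells, 2692 for KO-labelled ones, and 4307 and 2072 UMIs for WT and KO-labelled myeloid-marker cells. The thinned Kcnk1 and Aqp3 shares of the KO-labelled groups lay under the limit that their 0 allows, so that background could not be separated from expression for these genes over all KO-labelled cells. Cd44, Igf1r and the Tmem176 genes had UMIs in myeloid-marker cells and Serpinb1a in B-marker cells, so those cells set no background for them.

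WT Tcrg-V6-only cells were compared with WT Tcrg-V4-only cells of the same library to ask how the members differ between both γδ17 sources. Of the 8 members, 6 were past 2-fold higher, with 4.99% of 8102 genes past it in that direction. Serpinb1a had the largest log2 ratio at 2.84 (2.60 to 3.09), followed by Tmem176b at 2.10 (1.94 to 2.26), Tmem176a at 1.77 (1.60 to 1.95), Aqp3 at 1.71 (1.42 to 2.01), Cd44 at 1.55 (1.31 to 1.80) and Kcnk1 at 1.51 (1.14 to 1.90). Igf1r at 0.83 (0.67 to 1.0) and Pxdc1 at 0.54 (0.28 to 0.81) were higher by less than 2-fold. The median over the members was 1.63 and that over all genes compared -0.01. Cd27 UMIs were in 38.2% of thinned Tcrg-V4-only cells and 3.93% of Tcrg-V6-only cells, and the part of this difference in the members' ratios was not tested.

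**Figure D2:**
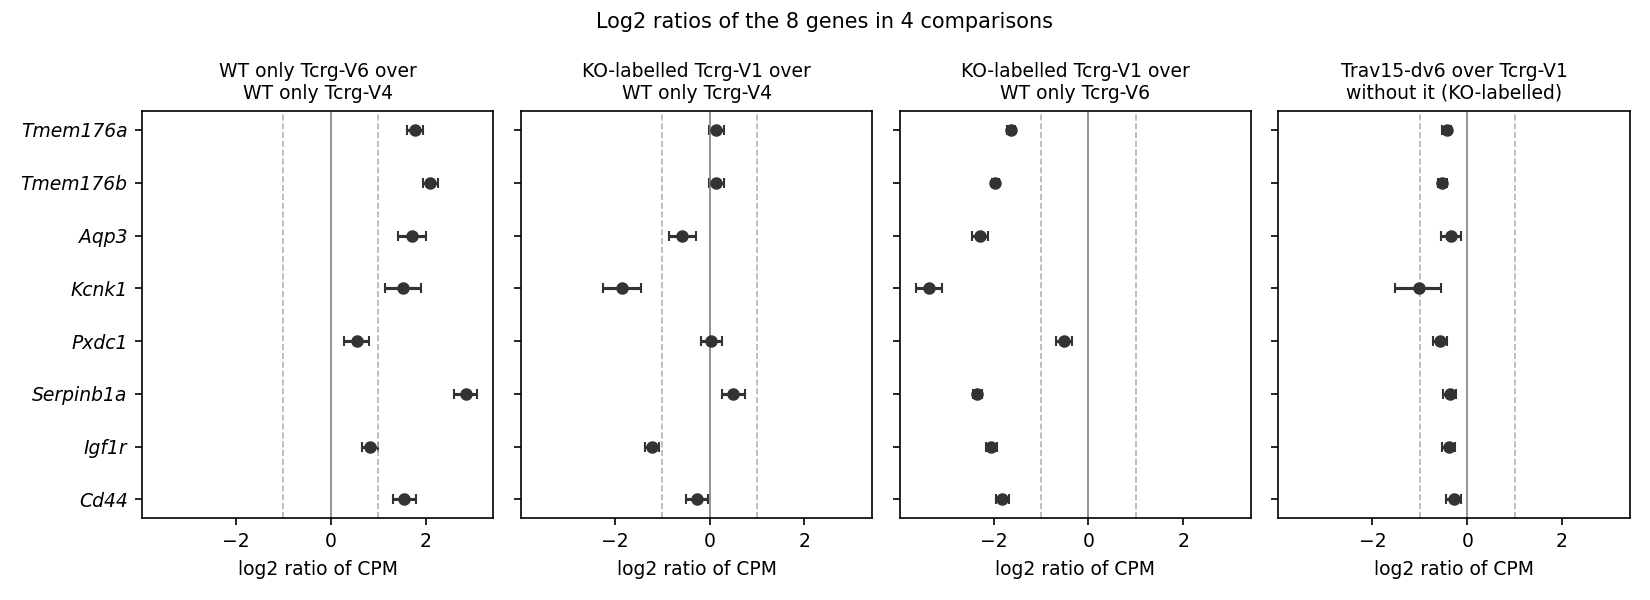
Log2 ratio of CPM for the 8 genes in 4 comparisons, with exact conditional 95% intervals that cover counting error only. The solid line marks 0 and the dashed lines 1 and -1. Panels with KO-labelled Tcrg-V1 cells against either WT group share the KO-labelled Tcrg-V1 cells, and 7 of 8 genes lie past -1 against Tcrg-V6-only cells.

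KO-labelled Tcrg-V1 cells were set against both WT groups, the contrast of the study read by γ chain transcript. Against Tcrg-V4-only cells, 2 of 8 members were past 2-fold lower, where 3.22% of 10699 genes were. These were Kcnk1 at -1.85 (-2.25 to -1.44) and Igf1r at -1.22 (-1.37 to -1.06). Aqp3 was at -0.58 (-0.86 to -0.29) and Cd44 at -0.26 (-0.49 to -0.03). Tmem176a at 0.14 (-0.02 to 0.31), Tmem176b at 0.14 (-0.01 to 0.30) and Pxdc1 at 0.03 (-0.19 to 0.26) had intervals that held 0, and Serpinb1a was at 0.50 (0.26 to 0.75). Among cells with a T cell UMI and no UMI of the myeloid or B cell lists the direction of 3 members turned, with Tmem176a at -0.38 (-0.60 to -0.14), Tmem176b at -0.29 (-0.51 to -0.06) and Pxdc1 at -0.54 (-0.86 to -0.21), and Kcnk1 was at -2.84 (-3.47 to -2.21). A UMI of the myeloid list was in 46.9% of Tcrg-V1 and 41.0% of Tcrg-V4-only cells. The gate thus leaves out many cells with T cell genes, and the part of this loss in the values was not tested.

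Against Tcrg-V6-only cells, 7 of 8 members were past 2-fold lower, where 6.49% of 10723 genes were. Kcnk1 was lowest at -3.36 (-3.65 to -3.08), then Serpinb1a at -2.34, Aqp3 at -2.29, Igf1r at -2.05, Tmem176b at -1.96, Cd44 at -1.81 and Tmem176a at -1.63. Pxdc1 was at -0.51 (-0.69 to -0.34). Both comparisons share the KO-labelled cells. Side by side, Kcnk1 and Igf1r were past 2-fold lower in each, whereas Tmem176a, Tmem176b, Aqp3, Serpinb1a and Cd44 were so only against Tcrg-V6-only cells.

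Within the KO-labelled library, Trav15-dv6 cells were compared with Tcrg-V1 cells that had no Trav15-dv6 UMI. All 8 members were lower in Trav15-dv6 cells, with log2 ratios from -1.03 to -0.29. Kcnk1 at -1.03 (-1.52 to -0.55) was the 1 member past 2-fold, where 0.278% of 10779 genes were. It lay on the threshold and was at -0.79 to -1.70 over the alternatives. Pxdc1 was at -0.58 (-0.72 to -0.44), Tmem176b at -0.53 (-0.62 to -0.43) and Tmem176a at -0.43 (-0.53 to -0.33). The 1499 Trav15-dv6 cells were not alike. The 797 with a Tcrg-V1 UMI had 219 Tmem176a and 124 Serpinb1a CPM, whereas the 702 without one had 133 and 88.9 CPM, and 251 and 143 CPM were measured in Tcrg-V1 cells without Trav15-dv6. Il23r had 67.8, 59.9 and 98.1 CPM in these 3 sets of cells. Median depth was 4838, 3468 and 3996 UMIs, respectively, and at equal depth Tmem176a UMIs were in 23.4%, 14.3% and 24.2% of cells.

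The members were then related to Il23r, the transcript of the receptor chain for IL-23, in cells thinned to 2000 UMIs so that all cells had equal depth. Splits of a whole library, here and by Il17a and Cd27 below, took all cells of that depth, not only the TCR groups. Before thinning, a T cell gene UMI was in 90.9% of all WT and 96.5% of all KO-labelled cells. Some cells without a marker UMI may thus lie outside the T lineage, and the ratios include them. In the KO-labelled library, 485 of 5806 cells had an Il23r UMI, and all 8 members were past 2-fold higher in them, where 6.43% of 10147 genes were. Kcnk1 had 50.5 CPM with and 6.30 CPM without an Il23r UMI, a log2 ratio of 3.0 (2.44 to 3.56). Pxdc1 had 434 and 54.6 CPM, a ratio of 2.99 (2.81 to 3.17), and Tmem176b 837 and 131 CPM, a ratio of 2.68 (2.55 to 2.80). The smallest ratio was that of Cd44, at 1.96 (1.74 to 2.18).

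In the WT library, 574 of 2125 cells had an Il23r UMI and 6 of 8 members were past 2-fold higher in them, where 3.07% of 8564 genes were. Pxdc1 led at 1.67 (1.42 to 1.92), and Kcnk1 followed at 1.61 (1.28 to 1.94), with 144 and 47.1 CPM. Cd44 at 0.99 (0.78 to 1.20) and Aqp3 at 0.80 (0.56 to 1.05) were the others. The ratio of each of the 8 members was larger in the KO-labelled than in the WT library, with medians of 2.54 and 1.28. That difference has no replicate check. Il23r UMIs were in 27.0% of thinned WT and 8.35% of thinned KO-labelled cells, and a cell without one may still hold the transcript. The difference in ratios therefore cannot be told apart from these detection rates or from the unequal shares of cells with T cell genes.

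**Figure D3:**
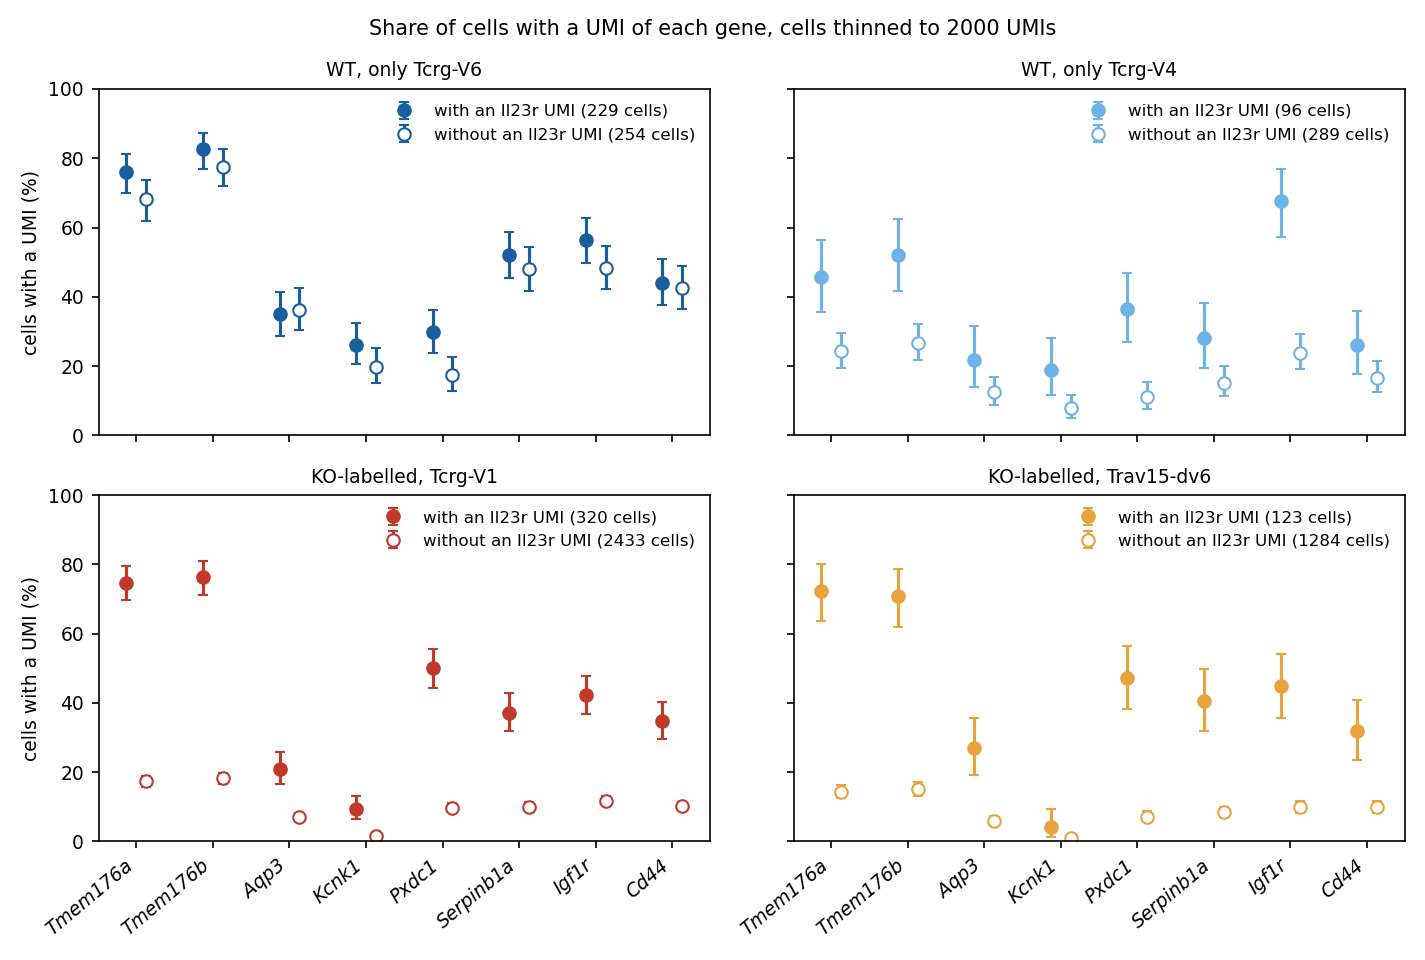
Share of cells with a UMI of each gene, in percent, among cells with (filled) and without (open) an Il23r UMI in the 4 TCR transcript groups, after thinning to 2000 UMIs. Bars are exact Clopper-Pearson 95% intervals. In Tcrg-V6-only cells the bars of filled and open points overlap for 7 genes and not for Pxdc1, at 29.7% and 17.3%. In the KO-labelled groups they are apart for all genes but Kcnk1 in Trav15-dv6 cells, and Tmem176b is in 76.3% against 18.2% and 70.7% against 15.0% of cells.

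The same split within each TCR group gave different ranges. In Tcrg-V6-only cells the log2 ratios ran from -0.36 for Aqp3 to 1.19 for Pxdc1, and Tmem176a was in 76.0% of cells with and 68.1% of cells without an Il23r UMI. Pxdc1 had 251 CPM with and 110.2 CPM without one. In Tcrg-V4-only cells all 8 were above 0, from 0.73 for Cd44 to 2.06 for Pxdc1, and Igf1r was in 67.7% against 23.9% of cells. In Tcrg-V1 cells the ratios ran from 1.70 for Serpinb1a to 2.64 for Kcnk1, and in Trav15-dv6 cells from 1.71 for Kcnk1 to 2.84 for Pxdc1. The Kcnk1 value in Trav15-dv6 cells rested on 5 UMIs in cells with Il23r. In Tcrg-V6-only cells the intervals of Pxdc1, Igf1r at 0.55 (0.28 to 0.82), Tmem176b at 0.36 (0.18 to 0.54) and Tmem176a at 0.29 (0.08 to 0.51) lay above 0, and those of the other 4 members held 0. Tcrg-V1 cells had Tmem176a at 169 CPM without and 811 CPM with an Il23r UMI.

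Among cells with an Il23r UMI alone, the distance between the groups was another one. There were 320 Tcrg-V1, 96 Tcrg-V4-only and 229 Tcrg-V6-only cells of this kind. Tmem176a had 811 CPM (743 to 884) in Tcrg-V1 cells, 375 (293 to 472) in Tcrg-V4-only cells and 852 (769 to 940) in Tcrg-V6-only cells. Tmem176b had 898, 432 and 1192 CPM. Igf1r was highest in Tcrg-V4-only cells, at 641 CPM (532 to 764) against 576 (509 to 650) in Tcrg-V6-only cells, with overlapping intervals. Pxdc1 was highest in Tcrg-V1 cells, at 419 CPM (370 to 472). It had 281 (211 to 367) in Tcrg-V4-only and 251 (207 to 301) in Tcrg-V6-only cells. Of these groups, Tcrg-V6-only cells were highest for the other members. Against Tcrg-V4-only cells 2 of 8 members were past 2-fold higher, where 4.45% of 4205 genes were, namely Tmem176a at 1.11 (0.75 to 1.49) and Tmem176b at 1.06 (0.72 to 1.41). With another random thinning 1 was, and without thinning 0 were, with Tmem176a at 0.80 (0.59 to 1.01).

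Kcnk1 was the 1 member past 2-fold lower in that comparison, where 3% of genes were, with 56.3 CPM in Tcrg-V1 and 120 CPM in Tcrg-V4-only cells, a ratio of -1.09 (-1.88 to -0.27) from 36 and 23 UMIs. With at least 2 UMIs required of the TCR gene it was at 1.01 (-1.67 to 6.39). It was not past 2-fold with the T cell gate, at -1.43 with an interval that held 0, in cells of 2000 to 5000 UMIs, at -0.99, or without cells with Y-linked UMIs, at -0.79. Igf1r had 364 and 641 CPM, a ratio of -0.82 (-1.14 to -0.49), Serpinb1a was at 0.93 (0.42 to 1.48), Pxdc1 at 0.57 (0.15 to 1.02) and Cd44 at 0.55 (0.00 to 1.14). Aqp3, with 138 and 135 CPM, was at 0.02 (-0.62 to 0.71), an interval that spans 0 widely. Against Tcrg-V6-only cells with an Il23r UMI, a comparison added after the data had been seen, 2 of 8 members were past 2-fold lower, where 3.42% of 4993 genes were. Kcnk1 was at -1.5 (-2.12 to -0.91) and Serpinb1a at -1.14 (-1.38 to -0.90), Tmem176a was at -0.07 (-0.26 to 0.12), and Pxdc1 was higher, at 0.74 (0.42 to 1.07).

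Il17a, the effector cytokine transcript, was in 372 WT and 90 KO-labelled thinned cells. In WT cells with an Il17a UMI 3 of 8 members were past 2-fold higher, where 2.32% of 8564 genes were. These were Pxdc1 at 1.38 (1.12 to 1.64), Tmem176a at 1.12 (0.96 to 1.27) and Tmem176b at 1.02 (0.88 to 1.15), and Aqp3 had the smallest ratio at 0.47 (0.17 to 0.75). In KO-labelled cells all 8 were, where 4.9% of 10147 genes were, from Cd44 at 1.32 (0.77 to 1.82) to Kcnk1 at 2.87 (1.88 to 3.74). Kcnk1 there had 12 UMIs in the 90 cells. Within Tcrg-V6-only cells 5 of 8 members were above 0 and Aqp3 was at -0.54 (-0.99 to -0.11), with 193 CPM with and 281 CPM without an Il17a UMI. Of the members, Pxdc1 had the largest ratio to Il17a detection in Tcrg-V6-only cells, at 1.03 (0.58 to 1.48).

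Cd27 gave the opposite direction. In WT cells 7 of 8 members were past 2-fold lower where a Cd27 UMI was found, and 4.75% of 8564 genes were. Kcnk1 was at -2.25 (-2.95 to -1.63), Tmem176b at -2.05 (-2.29 to -1.83) and Serpinb1a at -2.00 (-2.29 to -1.72), and Igf1r, the 1 other, was at -0.93 (-1.15 to -0.72). In KO-labelled cells 3 of 8 were, where 1.14% of 10147 genes were. Kcnk1 was at -1.85 (-2.62 to -1.14), Pxdc1 at -1.07 (-1.28 to -0.86) and Tmem176a at -1.01 (-1.16 to -0.87). In cells of 2000 to 5000 UMIs 1 remained past 2-fold, Kcnk1 at -2.96, with Tmem176a at -0.97 and Pxdc1 at -0.91. Serpinb1a was nearly level in the KO-labelled library, with 98.0 CPM in cells with and 116 CPM in cells without a Cd27 UMI, a ratio of -0.25 (-0.41 to -0.08).

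The number of members per cell differed between the groups. Of the 8 genes a thinned cell had a UMI of 3.79 on average in Tcrg-V6-only, 1.78 in Tcrg-V4-only, 1.16 in Tcrg-V1 and 0.945 in Trav15-dv6 cells. At least 4 of them were found in 60.5%, 20.0%, 12.7% and 9.31% of cells, and at least 1 in 97.7%, 67.0%, 45.9% and 42.1%. Tcrg-V1 cells with an Il23r UMI had 3.45 on average, between the 4.02 of Tcrg-V6-only and the 2.97 of Tcrg-V4-only cells with one. Cells of these groups without one had 0.854, 3.58 and 1.38 in the same order.

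**Figure D4:**
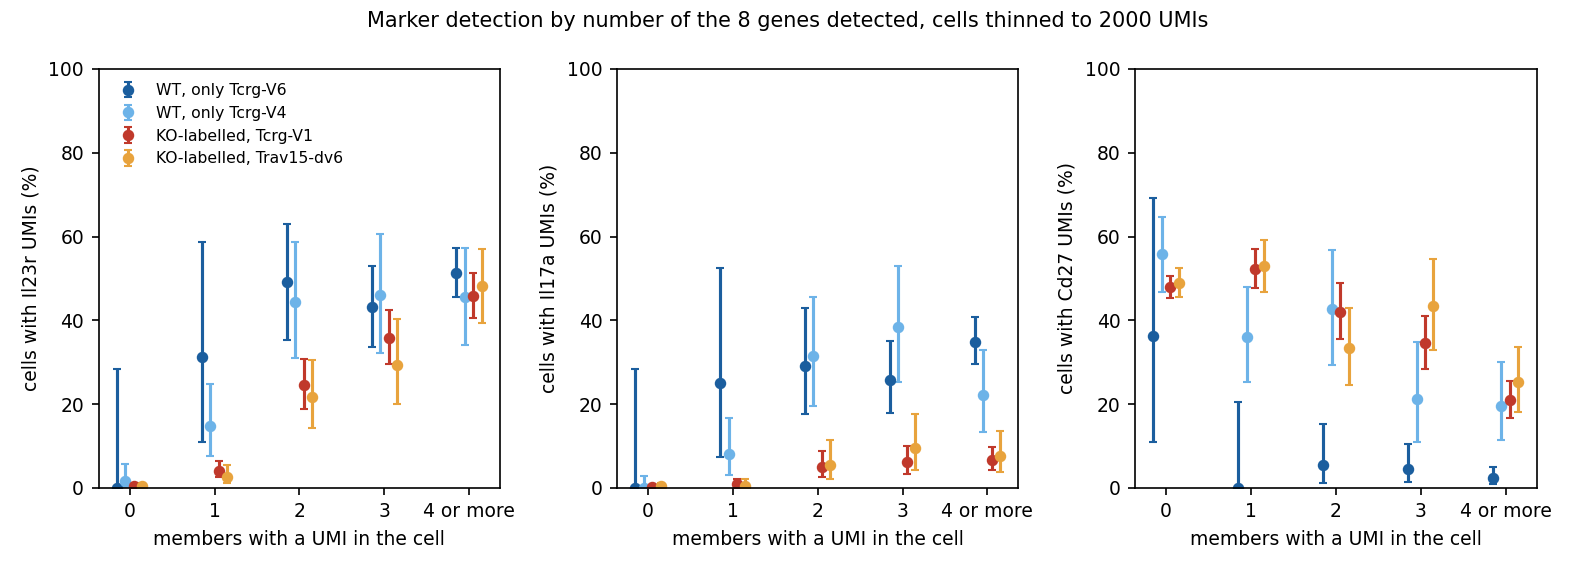
Share of thinned cells with UMIs of Il23r, Il17a and Cd27, in percent, by how many of the 8 genes had a UMI in the cell, for the 4 TCR transcript groups. Bars are exact Clopper-Pearson 95% intervals. Il23r lies between 45.5% and 51.4% at 4 or more genes in all 4 groups, with a step at each further gene in the KO-labelled groups but not at every one in the WT groups, and Il17a stays under 10% in both KO-labelled groups.

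Read the other way, an Il23r UMI was in 0.336% of Tcrg-V1 cells with none of the 8 genes (0.109 to 0.782), in 4.08% with 1, 24.4% with 2, 35.8% with 3 and 45.8% with 4 or more (40.5 to 51.2). In cells with 4 or more the share was 51.4% in Tcrg-V6-only, 45.5% in Tcrg-V4-only and 48.1% in Trav15-dv6 cells, and all 4 intervals overlapped. Il17a was also in more Tcrg-V1 cells with more of the genes, from 0.134% with none and 0.858% with 1 to 4.98% with 2 and 6.11% with 3, and in 0% of Tcrg-V4-only cells with none and 38.5% with 3. Its level differed between groups. In cells with 4 or more of the genes it was in 34.9% of Tcrg-V6-only (29.5 to 40.7), 22.1% of Tcrg-V4-only (13.4 to 33), 6.59% of Tcrg-V1 (4.22 to 9.72) and 7.63% of Trav15-dv6 cells (3.72 to 13.6). Cd27 UMIs were in 20.9% of Tcrg-V1 cells with 4 or more of the genes and 48.0% of those with none, and in 2.40% of Tcrg-V6-only cells with 4 or more.

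**Figure D5:**
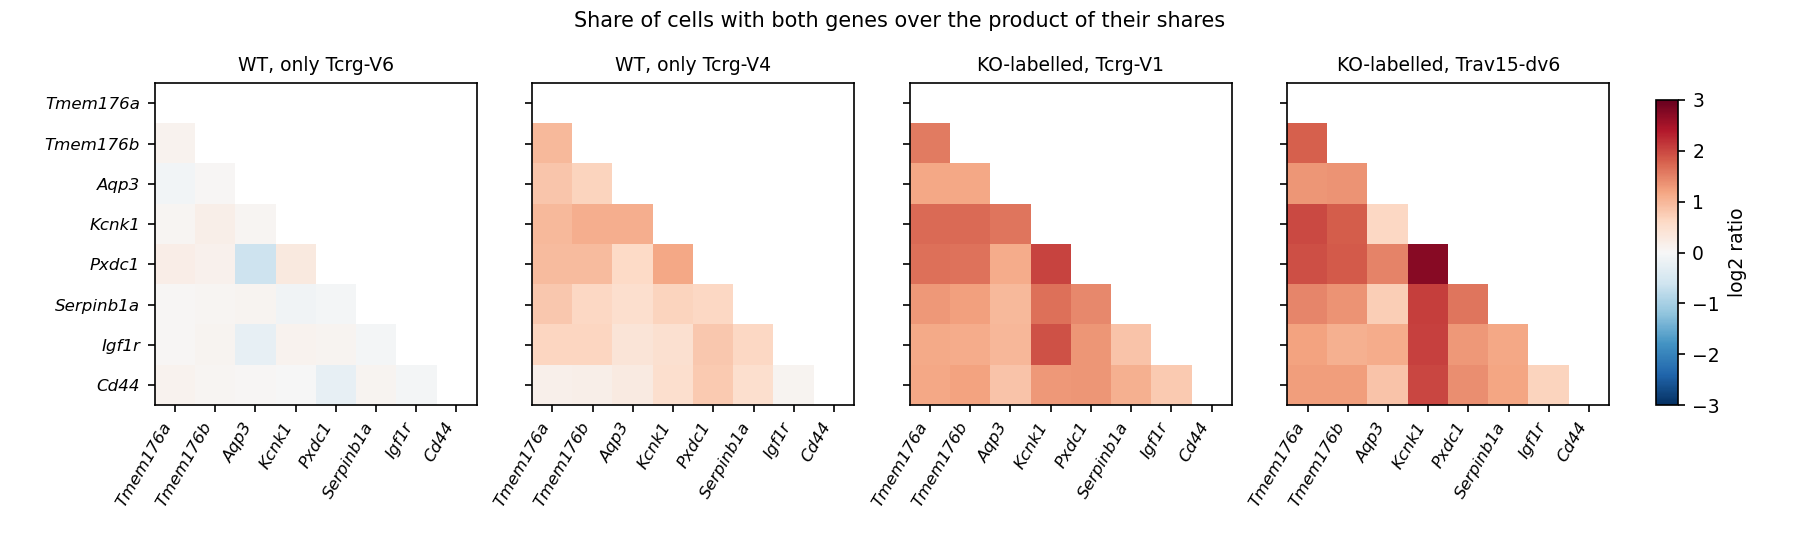
Log2 of the share of thinned cells with UMIs of both genes over the product of the shares of each, for the 28 pairs in the 4 TCR transcript groups. Tcrg-V6-only cells have the lowest median, with linear ratios from 0.652 to 1.22. Kcnk1 with Pxdc1 has the highest ratio in both KO-labelled groups, at 4.05 and 6.67 on a linear scale. The ratio cannot exceed 1 over the larger share of a pair, so lower shares raise its ceiling.

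For each of the 28 pairs the share of cells with both genes was set beside the product of their shares. The ratio of these had a median of 1.03 in Tcrg-V6-only cells, 1.56 in Tcrg-V4-only, 2.40 in Tcrg-V1 and 2.56 in Trav15-dv6 cells, and it was above 1 for 19, 28, 28 and 28 pairs. Tmem176a and Tmem176b had ratios of 1.07, 1.97, 2.96 and 3.49, and 73.6% of Tcrg-V1 cells with Tmem176a also had Tmem176b. Kcnk1 with Pxdc1 had the highest ratio in all 4 groups, at 1.22, 2.24, 4.05 and 6.67, the last from the 17 Trav15-dv6 cells with a Kcnk1 UMI. The lowest was Aqp3 with Pxdc1 in Tcrg-V6-only cells, at 0.652, where 15.1% of cells with Aqp3 had Pxdc1 against 23.2% of all. The ratio cannot exceed 1 over the larger share of a pair, so its ceiling falls as detection rises. Tmem176b was in 79.9% of thinned Tcrg-V6-only and 19.9% of Trav15-dv6 cells. Differences in the ratio between groups therefore cannot be told apart from their detection rates. Pairs share cells and depth, so the ratios are a description.

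Genes with the most similar pattern were found over 19 sets of at least 30 cells made of library, TCR transcript class and Il23r detection, by Pearson's r of log2(CPM + 10) among 10016 genes. The sets of 1 library share its depth and free RNA. Tmem176a was nearest to Rbpms2 (r = 0.991) and Ccr2 (0.987), a chemokine receptor, and Tmem176b to Smox (0.990), a spermine oxidase, and Ccr2 (0.987). Aqp3 was nearest to Sox13 (0.984), a transcription factor of the γδ17 branch, and Il1r1 (0.972), a receptor for IL-1. Kcnk1 was nearest to Lamc1 (0.966) and Fstl4 (0.964), and Pxdc1 to Atp5md (0.970), a subunit of ATP synthase, and Kbtbd11 (0.969). Serpinb1a was nearest to Bcl2a1d (0.974) and Bcl2a1b (0.968), near-identical survival genes whose reads may be shared, Igf1r to Hspa5 (0.98), a chaperone, and Ell2 (0.976), and Cd44 to Smap2 (0.974) and Ppp1r14c (0.971). Among the members r was lowest for Kcnk1 with Pxdc1, at 0.696, although their co-detection ratio was the highest of the 28 in both KO-labelled groups.

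Of a list of 20 genes of the IL-17 program, 14 were past 2-fold higher and 3 lower in Tcrg-V6-only than Tcrg-V4-only cells, with a median log2 ratio of 1.63, where 4.99% and 5% of all genes were. Ltb4r1 at 3.03, Cd163l1 at 3.0, Cxcr6 at 2.44 and Il1r1 at 2.41 were highest, and 5830411N06Rik at -4.06, Il17f at -1.75 and Ccr6 at -1.60 were lower. Against Tcrg-V4-only cells, Tcrg-V1 cells had 3 higher (Zbtb16 at 1.67, Icos at 1.21, Ltb4r1 at 1.03) and 4 lower (Il17f at -5.10, Ccr6 at -2.73, Blk at -2.72, Il17a at -2.65), with a median of -0.40, where 2.64% and 3.22% of genes were. Against Tcrg-V6-only cells 1 was higher (5830411N06Rik) and 16 lower, with a median of -1.74, where 8.75% and 6.49% of genes were. In Trav15-dv6 cells 0 were past 2-fold in either direction, where 0.427% of genes were higher and 0.278% lower. Like the members, most of the list was highest in Tcrg-V6-only cells, but 5830411N06Rik, Il17f and Ccr6 were not.

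The type 1 program list, 19 genes, had 0 higher and 15 lower of 18 compared between Tcrg-V6-only and Tcrg-V4-only cells, with a median of -2.34, beside 4.99% and 5% of all genes. Cd27 was at -3.33, Ly6c2 at -3.26 and Ccl5 at -3.16, and Gzma, with 1 UMI in Tcrg-V6-only cells, was at -8.68 (-13.98 to -6.19). In Tcrg-V1 against Tcrg-V4-only cells 2 were higher (Klf2 at 1.65, Cd28 at 1.13) and 3 lower (Gzma at -2.0, Eomes at -1.15, Xcl1 at -1.06), with a median of 0.10, beside 2.64% and 3.22% of genes, and against Tcrg-V6-only cells 16 were higher and 0 lower, with a median of 2.55, beside 8.75% and 6.49% of genes. Of 27 relatives of the members (other aquaporins, potassium channels, clade B serpins and genes of insulin-like signalling), 8 reached 30 UMIs in the first comparison, where Serpinb6a was at 1.77, Kcnk5 at 1.61 and Serpinb9 at 1.04 and 0 were past 2-fold lower. In the second, 11 reached 30 UMIs and Kcnn4, a calcium-activated potassium channel, was the 1 past 2-fold, at 1.13 (0.80 to 1.47). Against Tcrg-V6-only cells 3 relatives were higher (Aqp11, Kcnn4, Insr) and 4 lower (Kcnk7, Serpinb6a, Kcnk5, Serpinb9). In Trav15-dv6 cells 0 genes of the type 1 list and 0 relatives were past 2-fold. Among Il23r-positive Tcrg-V1 against Tcrg-V4-only cells, the IL-17 list had 6 higher and 4 lower of 19 compared, the type 1 list 4 higher and 0 lower of 11, and the relatives 1 higher (Kcnn4) of 6, beside 4.45% of genes higher and 3% lower.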

How the data were processed

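Single-cell UMI counts of 2 lung libraries, 1 WT and 1 KO-labelled, were used. The deposited matrices hold raw counts per gene and barcode, produced by the authors with Cell Ranger on mm10. Version 7.0.0 stands in the file headers, an older release and a V(D)J kit in the methods, and a 3′ protocol in the labels. Intron and strand settings and the annotation release: not given in the sources used here. Cells with over 200 and under 4000 genes and under 10% mitochondrial UMIs were kept, the limits given in those methods (2505 of 2520 WT and 6634 of 6688 KO-labelled barcodes). The study reports fewer cells for each library, so the cells kept here are not the same set as its own. No doublet caller was run, and the 5% of cells with most UMIs were left out as an alternative.

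UMIs were summed per group and given as CPM. Intervals were exact Poisson (levels), exact conditional (ratios) and Clopper-Pearson (shares), all at 95% and for counting error only. A share of 0 allows up to 3 counts of its total. Cells are not replicates, so there is no test or p-value. Ratios over all genes used those with at least 30 UMIs over both groups, and 8 of 8 members passed in each comparison. Shares were read after thinning to 2000 UMIs (seed 1). Gene positions are from GENCODE for GRCm38, which matched 32158 of 32285 identifiers. The members, lists and comparisons were chosen with earlier results of these data known. The text names all members, the TCR genes and markers, up to 4 genes of each list in each direction by size, and the first 2 of the 3 nearest genes of each member. Some genes that this rule would name are not reported here. The TCF/LEF letters were chosen after the promoter had been read. Python 3.11.15, numpy 2.4.6, scipy 1.17.1, pandas 2.3.3 and matplotlib 3.10.9 were used. The steps were tested on simulated counts. Alternatives varied the cell filter, the grouping, the depth, the cell type gate, doublets, Y-linked UMIs, thinning and the minimum of UMIs.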

Additional observations from a re-analysis of the deposited data

Results flagged for a closer look

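Some members had UMIs in cells outside the T lineage, which no comparison used, in more cells than a count of 0 would allow. Among cells with myeloid markers and no T cell gene, Cd44 UMIs were found in 81.8% of the 33 of the WT and 52.6% of the 19 of the KO-labelled library. Tmem176b UMIs were in 36.4% and 36.8% of these cells, and Tmem176a UMIs in 21.2% and 36.8%. Igf1r UMIs were in 24.2% of the WT myeloid-marker cells. Serpinb1a UMIs were in 45.5% of 11 KO-labelled cells with B cell markers, from 10 UMIs in all. The median depth was 4307 UMIs in WT and 2072 UMIs in KO-labelled myeloid-marker cells and 2692 UMIs in KO-labelled B-marker cells.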

How the results depend on the processing

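Over 15 alternative settings, 1001 of 1024 recomputed log2 ratios of the members kept their sign. The 13 sign changes of Tcrg-V1 against Tcrg-V4-only cells touched Tmem176a, Tmem176b, Pxdc1 and Cd44. Of ratios past 2-fold, Kcnk1 among Il23r-positive Tcrg-V1 and Tcrg-V4-only cells was at 1.01 with at least 2 UMIs of the TCR gene, where Blk was at 0.090 and Ccl5 at -1.43, and Eomes in Tcrg-V1 against Tcrg-V4-only cells was at 0.19 in cells of 2000 to 5000 UMIs. Members past 2-fold lower in Trav15-dv6 cells numbered 2 with at least 2 UMIs of the TCR gene, and 0 with Tcrg-V1 as the only Tcrg-V gene, with the T cell gate, without the 5% of cells with most UMIs and without cells with Y-linked UMIs. Among Il23r-positive Tcrg-V1 against Tcrg-V4-only cells, 0 members were past 2-fold higher without thinning and 1 with another seed, and 0 were past it lower with the T cell gate, in cells of 2000 to 5000 UMIs and without Y-linked UMIs. Against Il23r-positive Tcrg-V6-only cells 1 was higher with thinning to 1000 UMIs and with another seed, and 1 lower with thinning to 1000 UMIs. By Cd27 detection in KO-labelled cells, 1 was lower in cells of 2000 to 5000 UMIs. For these counts, here and above, the share of all genes past 2-fold under the same setting is not given. A change in the members therefore cannot be set against it. The cause of these changes was not tested.

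Replicate error is unknown with 1 library per group, so no difference can be set against it. No paired analysis was possible because there was only 1 library for each group. Depth limits Kcnk1 most, with 51 UMIs in Trav15-dv6 cells. A cell without a UMI of a gene is not shown to lack its transcript.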
